A study of Mus musculus with 18 samples.

Results

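The genes described here build the hemidesmosome, the junction that ties basal keratinocytes to the basement membrane, and 2 chains of its laminin ligand. They were taken by symbol from the deposited count table and number 8 of its 20655 rows. Itga6, Itgb4, Col17a1 and Cd151 encode membrane proteins of the junction, Plec and Dst encode its cytoplasmic plakins, and Lama3 and Lamb3 encode the alpha and beta chains of laminin-332. All 8 genes had counts in every library, and all 8 passed the filter on low counts in each analysis.

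The libraries were made from the epidermis of mouse embryos at E18.5, labelled as epidermal basal cells, after shRNA had been delivered in utero at E9.5. In 9 libraries ribosome footprints were sequenced, which are the stretches of mRNA covered by translating ribosomes, and in the other 9 RNA was sequenced. Each kind held 3 libraries of each of 3 conditions. WT shScram embryos received a scrambled shRNA and carried the fluorescent reporter allele tm4(ACTB-tdTomato,-EGFP)Luo at Gt(ROSA)26Sor. HrasG12V shScram embryos were of strain FR-HrasG12V, carry an activating allele of the small GTPase gene Hras and received the scrambled shRNA. HrasG12V shEif2b5 embryos were of the same strain and received an shRNA against Eif2b5, the gene of the catalytic eIF2B subunit. eIF2B recharges the initiation factor eIF2 with GTP. Strain and Hras genotype cannot be told apart in any comparison with WT shScram, and no condition paired WT with the Eif2b5 shRNA. The labels do not say what drives the HrasG12V allele in these cells, nor whether the 3 libraries of a condition came from separate animals, so the p-values speak only of library-to-library spread, which may be technical. The genotype of WT shScram footprint library 1 is labelled Rosa26 and not WT, and that library was kept in its group.

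In the hemidesmosome, integrin alpha6beta4 binds laminin-332 outside the cell and plectin inside it. Plectin and BPAG1e, the epithelial product of Dst, hold the keratin filaments made by Krt5 and Krt14. Collagen XVII spans the membrane beside the integrin, and the tetraspanin CD151 associates with laminin-binding integrins. Laminin-332 joins this complex to the anchoring fibrils of collagen VII, and inherited loss of these proteins in people causes blistering skin disease.

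In the GENCODE annotation of mm10, the integrin genes lay at chr2:71745616-71858416 (Itga6, plus strand) and chr11:115974709-116008412 (Itgb4, plus strand). Col17a1 lay at chr19:47646344-47692094 on the minus strand and Cd151 at chr7:141467392-141471473 on the plus strand. Plec lay at chr15:76170974-76232574 on the minus strand and Dst at chr1:33908225-34308661 on the plus strand. Lamb3 lay at chr1:193207699-193343878 on the plus strand. The counts cover coding sequence only, so coding length sets how many reads a gene can collect. The union of annotated coding exons was 29476 bases for Dst, 14816 for Plec, 10161 for Lama3, 5613 for Itgb4, 4410 for Col17a1, 3504 for Lamb3, 3378 for Itga6 and 759 for Cd151. Among the 10742 tested genes with a length, Dst stood at percentile 100 after rounding, Plec at percentile 99.8 and Lama3 at percentile 99.4. Cd151 stood at percentile 17.7. Plec shares 199 coding bases with Parp10 on the same strand, and how the authors counted shared bases is not given in the sources used here.

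A count per gene symbol adds up all transcripts of a gene. Dst is annotated with 14 coding transcripts, among them one of 23151 coding bases (Dst-211) and one of 7917 (Dst-213) whose coding sequence starts at an internal position. Lama3 has 2 coding transcripts, of 9990 and 5172 coding bases. RefSeq starts (GRCm38.p6) were found for 4 of the 8 genes, Dst, Cd151, Lamb3 and Col17a1. The 250 bases before the upstream Cd151 start and before both RefSeq starts found for Dst are shown. They were chosen because Cd151 RNA fell and because the Dst starts give different transcripts that the counts cannot separate. The Dst windows are named upstream and internal relative to each other. The coding sequence of Dst-211 starts before both of them, at chr1:33908272, so neither window belongs to the start of Dst-211. CG dinucleotides are in capitals.
Cd151, upstream start, chr7:141467112-141467361, plus strand: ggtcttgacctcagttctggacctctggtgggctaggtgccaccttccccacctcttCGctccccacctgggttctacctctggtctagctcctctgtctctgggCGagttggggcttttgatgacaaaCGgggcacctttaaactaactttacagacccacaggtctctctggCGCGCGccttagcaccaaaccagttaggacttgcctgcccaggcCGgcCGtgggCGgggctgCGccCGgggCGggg
Dst, upstream start, chr1:34011345-34011594, plus strand: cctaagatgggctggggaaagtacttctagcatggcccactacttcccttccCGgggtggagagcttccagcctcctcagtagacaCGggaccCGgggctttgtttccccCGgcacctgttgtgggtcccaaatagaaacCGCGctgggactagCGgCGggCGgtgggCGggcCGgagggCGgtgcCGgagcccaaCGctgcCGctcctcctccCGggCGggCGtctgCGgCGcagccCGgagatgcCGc
Dst, internal start, chr1:34160010-34160259, plus strand: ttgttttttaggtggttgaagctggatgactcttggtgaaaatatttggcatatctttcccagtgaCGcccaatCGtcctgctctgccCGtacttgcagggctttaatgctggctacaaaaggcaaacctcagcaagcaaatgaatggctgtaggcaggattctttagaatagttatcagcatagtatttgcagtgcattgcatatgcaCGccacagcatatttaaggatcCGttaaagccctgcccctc
The upstream Dst window holds 22 CG dinucleotides and 68.8% G or C, the internal Dst window 5 and 45.2%, and the Cd151 window 12 and 62.4%, against a median of 6 CG dinucleotides over 32851 RefSeq windows of the same length. The Cd151 window overlaps an exon of the gene Gm10575. Neither an AP-1 motif (TGANTCA) nor an ETS motif (CCGGAAG) was found on either strand in any of the 7 member windows, and these letters occur in 6.75% and 6.91% of all windows.

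Coding-sequence counts summed to 1771365 to 5505386 per RNA library and to 3319175 to 4933298 per footprint library. HrasG12V shScram RNA libraries 1 to 3 held 5214473, 1771365 and 4310239, so library 2 was the shallowest of all RNA libraries. Those of HrasG12V shEif2b5 held 2758443, 2812627 and 2209327. The basal keratinocyte genes Krt5, Krt14 and Trp63 summed to 6083 to 12198 CPM (counts scaled to a common library size, TMM) in RNA, and the 6 spinous genes (Krt1 and Krt10 among them) to 34049 to 97934 CPM, so the libraries held RNA of suprabasal cells as well. The 6 fibroblast genes summed to 358 to 2119.7 CPM and the 5 Schwann cell genes, a cell type that also expresses Itgb4, to 37.8 to 58.7 CPM. The 5 melanocyte genes summed to 356 to 692 CPM, the 5 endothelial genes to 5.06 to 18.6 CPM, the 5 immune genes to 9.58 to 24.2 CPM and the 5 skeletal muscle genes to 0.555 to 15.8 CPM. In these bulk libraries, fewer cells of a type and less RNA per cell cannot be told apart. The targeted gene, Eif2b5, did not separate the RNA libraries by label. It stood at 134, 128 and 143 CPM in HrasG12V shEif2b5 libraries 1 to 3 and at 127, 388 and 145 CPM in those labelled HrasG12V shScram, against 158, 179 and 159 CPM in WT shScram. Library 1 labelled HrasG12V shScram was below every HrasG12V shEif2b5 library, and library 3 was just above them (log2 change −0.68, SE 0.37, adjusted p 0.257). Eif2b5 footprints overlapped as well, at 82.7, 78.5 and 95.4 CPM in HrasG12V shEif2b5 and 91.9, 93.1 and 102 CPM in HrasG12V shScram (−0.16, SE 0.12, adjusted p 0.994). Every direction given below for the shRNA contrast therefore rests on the labels of these libraries.

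The hemidesmosome genes were among the more abundant transcripts of WT shScram epidermis. Per kilobase of coding sequence, WT shScram RNA levels in CPM were highest for Col17a1, at 278 ± 17.8 (SD, n = 3). Plec followed at 151 ± 7.97, Itga6 at 114 ± 15.2, Itgb4 at 102 ± 13.8, Lamb3 at 86.0 ± 9.20, Cd151 at 57.8 ± 1.71, Lama3 at 46.3 ± 7.29 and Dst at 45.0 ± 2.16. Itga6 and Itgb4, Itgb4 and Lamb3, and Lama3 and Dst overlapped in their mean ± SD, and the other neighbours in this order did not. The lowest of them, Dst, still stood at percentile 72.9 of 11042 genes. The level of Dst depends on the length used, since its shorter transcripts would give higher values per kilobase.

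In WT shScram footprints the order was different. Per kilobase, Itga6 was highest at 179 ± 17.9 CPM (SD, n = 3), followed by Col17a1 at 167 ± 26.6, Lamb3 at 156 ± 29.0 and Cd151 at 143 ± 14.2, and these neighbours overlapped in mean ± SD. Itgb4 at 69.5 ± 10.2 and Lama3 at 45.4 ± 2.48 lay apart from them and from each other. Dst at 18.3 ± 2.71 and Plec at 13.9 ± 2.10 came last and overlapped, so that Plec moved from the second place in RNA to the last place in footprints.

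The 8 genes together took 0.642% ± 0.0447 of RNA counts in WT shScram, 0.511% ± 0.109 in HrasG12V shScram and 0.673% ± 0.00739 in HrasG12V shEif2b5 (SD, n = 3). The HrasG12V shScram libraries ranged from 0.389% to 0.598% and lay below all 6 other RNA libraries, the lowest of which stood at 0.610%. In footprints the shares were 0.375% ± 0.0387, 0.347% ± 0.0553 and 0.397% ± 0.0188 in the same order, and the groups overlapped. Plec weighed most in the RNA sum, with means of 2234 CPM in WT shScram and 1382 CPM in HrasG12V shScram. The RNA means of Itga6 (386 and 393 CPM) and Cd151 (43.8 and 53.3 CPM) were not lower in HrasG12V shScram, and those of the remaining genes were.

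**Figure D1:**
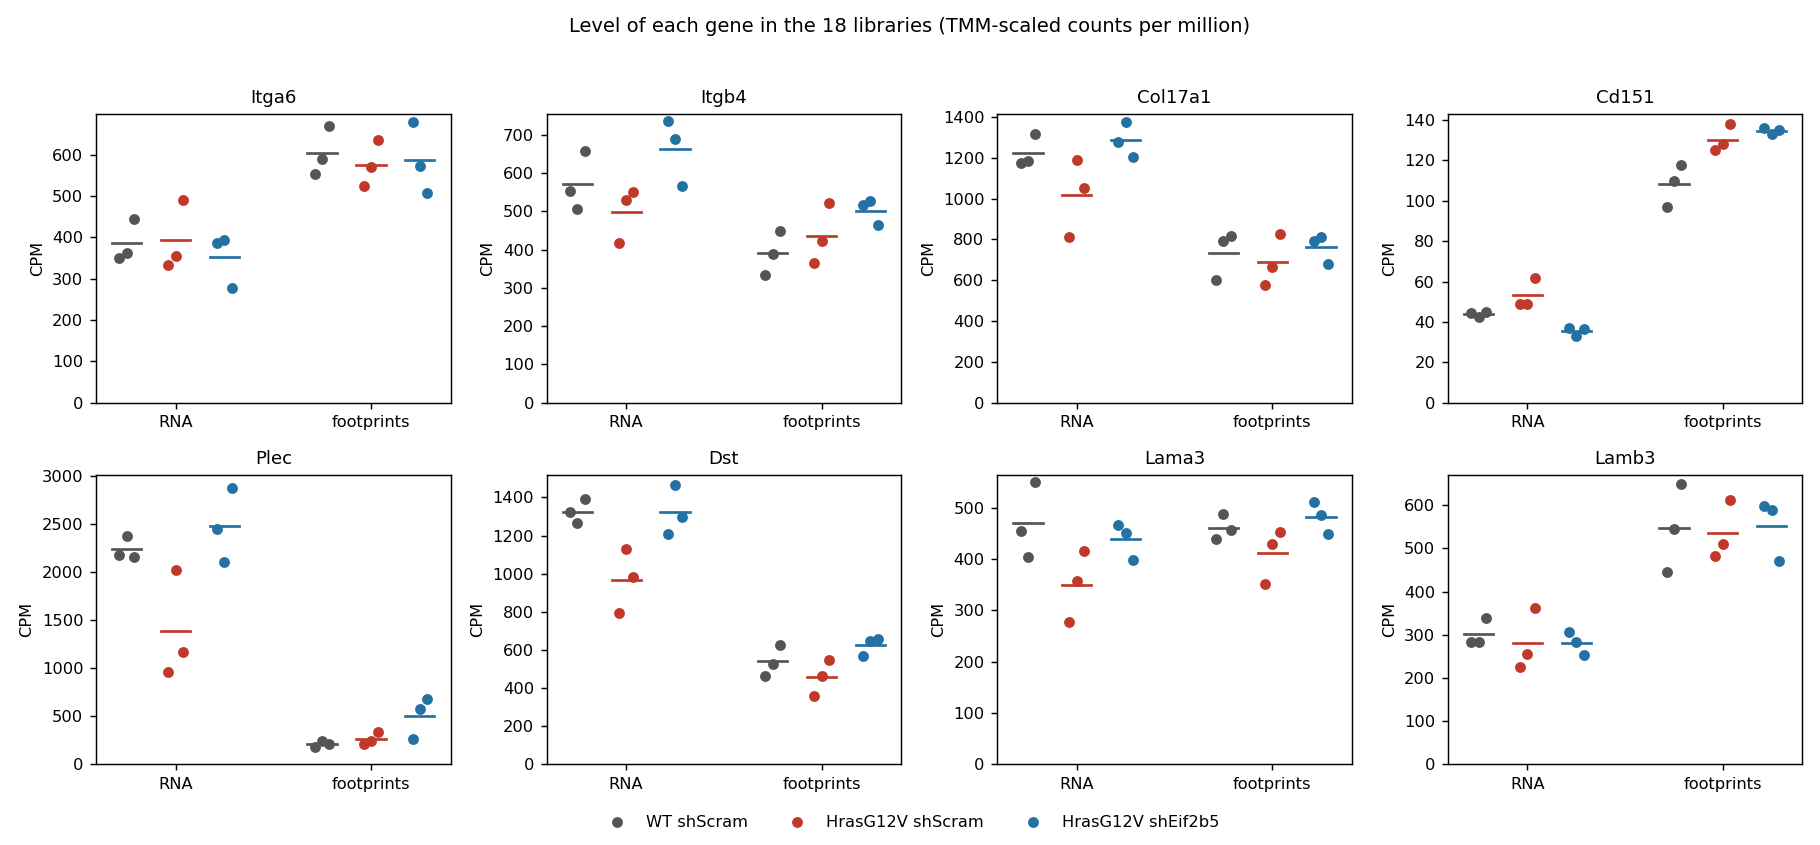
Level of each gene in TMM-scaled CPM (vertical axis, from 0) in the 9 RNA and 9 footprint libraries; points are libraries 1 to 3 from left to right, lines are group means and colours are conditions. Plec RNA in HrasG12V shScram spreads from 958 to 2019 CPM, and Cd151 RNA in HrasG12V shEif2b5 (33.0 to 37.0 CPM) lies below the 6 other libraries.

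The first comparison asks how the HrasG12V epidermis differed from WT when both carried the scrambled shRNA. In RNA, none of the 8 genes passed the test, where 7.70% of the 11096 tested genes did (edgeR quasi-likelihood test, Benjamini-Hochberg adjusted p under 0.05). At an unadjusted p under 0.05 there were 3 of the 8, against 25.3% of tested genes. The median log2 change of the 8 was −0.23, and that of all genes 0.01. Plec and Dst in RNA had groups that did not overlap with HrasG12V shScram lower, Cd151 had one with HrasG12V shScram higher. Of all tested genes 12.4% had non-overlapping lower groups and 13.7% higher ones.

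Plec, the plakin that links the integrin to keratin, stood at 2175, 2369 and 2156 CPM in the RNA of WT shScram libraries 1 to 3 and at 958, 2019 and 1168 CPM in HrasG12V shScram. All 3 HrasG12V shScram values were below the lowest WT value, library 2 narrowly so. The log2 change was −0.69 (SE 0.22), with an adjusted p of 0.0639. It was negative under all 16 alternative settings, from −1.07 without HrasG12V shScram library 2 (adjusted p 0.000385) to −0.14 without libraries 1 and 3 of that condition (adjusted p 0.823). Its size thus depended on which libraries were kept and on the offsets described next.

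The other plakin gene, Dst, stood in RNA at 1323, 1264 and 1391 CPM in WT shScram and at 794, 1128 and 983 CPM in HrasG12V shScram, again without overlap. Its log2 change was −0.45 (SE 0.16, adjusted p 0.0877), and it was called by DESeq2 (adjusted p 0.0411) and without HrasG12V shScram library 2 (−0.58, adjusted p 0.0131). Plec was called by DESeq2 as well (adjusted p 0.0290) and without the filter on low counts (adjusted p 0.0262). With all libraries kept and offsets for coding length and GC content added, Plec stood at −0.19 and Dst at −0.20. Both laminin chain genes had lower means in HrasG12V shScram. Lama3 RNA stood at 456, 405 and 551 CPM against 277, 358 and 417 (log2 change −0.43, SE 0.17, adjusted p 0.122), and the groups overlapped. Lamb3, with 282, 283 and 339 against 226, 255 and 362 CPM, changed by −0.10 (SE 0.17, adjusted p 0.746). Neither change passed the test.

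None of the 4 membrane protein genes passed the test in this RNA contrast. Itgb4 RNA was 552, 505 and 656 CPM in WT shScram and 418, 529 and 549 in HrasG12V shScram (log2 change −0.20, SE 0.16). Col17a1 RNA was 1176, 1184 and 1316 CPM against 814, 1187 and 1049.8 (−0.27, SE 0.16). Itga6 RNA was 350.1, 363 and 444 CPM against 334, 354 and 490.0 (0.03, SE 0.18). These groups overlapped, and the adjusted p-values were 0.468, 0.309 and 0.942. Cd151 RNA was 44.5, 42.4 and 44.7 CPM against 49.1, 48.9 and 61.9, higher in each HrasG12V shScram library (0.29, SE 0.16, adjusted p 0.265). With the same offsets the signs of Itgb4, Col17a1 and Lamb3 turned, to 0.19, 0.09 and 0.19.

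The second comparison asks what the Eif2b5 shRNA changed in HrasG12V epidermis. In RNA, Plec rose and Cd151 fell, and none of the 6 other genes passed the test. These 2 of 8 compare with 13.0% of all tested genes called (5.23% higher and 7.79% lower). The median log2 change of the 8 was 0.33, against −0.01 over all genes. At an unadjusted p under 0.05 there were 5 of the 8, against 30.5% of all genes.

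Plec RNA stood at 2442, 2099 and 2872 CPM in HrasG12V shEif2b5 libraries 1 to 3, against 958, 2019 and 1168 CPM in the libraries labelled HrasG12V shScram. The groups did not overlap, but HrasG12V shScram library 2 lay just under the lowest HrasG12V shEif2b5 library. The log2 change was 0.84 (SE 0.22, 95% interval 0.37 to 1.31, adjusted p 0.0231), or 1.79-fold. The call held in 9 of 16 alternatives. It was lost with length and GC offsets (0.30, adjusted p 0.329) and without HrasG12V shScram libraries 1 and 3 together (0.29, adjusted p 0.613). Leaving out 1 library, it was lost without HrasG12V shEif2b5 library 1 (adjusted p 0.0733) or 3 (0.116) and without HrasG12V shScram library 1 (0.106) or 3 (0.0915). It was also lost when the fit held only the 2 conditions compared (0.83, adjusted p 0.0512). Without HrasG12V shScram library 2 the change was 1.22 (adjusted p 8.53e-05).

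Cd151 is the shortest of the 8 and gave the fewest reads, 78 to 287 per RNA library, so its counting error is the largest of the set. Its RNA stood at 37.0, 33.0 and 36.6 CPM in HrasG12V shEif2b5 and at 49.1, 48.9 and 61.9 CPM in the libraries labelled HrasG12V shScram. Every HrasG12V shEif2b5 library was below every other RNA library of the study. The log2 change was −0.59 (SE 0.16, 95% interval −0.94 to −0.25, adjusted p 0.0264), or 0.663-fold. It lay between −0.66 and −0.46 in all 16 alternatives and was −0.59 (adjusted p 0.0375) with length and GC offsets. The call was lost when HrasG12V shEif2b5 library 1, 2 or 3 (adjusted p 0.0702, 0.0871 and 0.0885) or HrasG12V shScram library 1 or 3 (0.0522 and 0.122) was left out. Without HrasG12V shScram libraries 1 and 3 together the adjusted p was 0.461, and with only the 2 conditions in the fit it was 0.0567. The summed melanocyte genes were also lower in HrasG12V shEif2b5 RNA (427 to 549.6 CPM) than in HrasG12V shScram RNA (555 to 692 CPM), and their part in the Cd151 result was not tested.

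Dst RNA stood at 1207, 1463 and 1299.7 CPM in HrasG12V shEif2b5, above the 794, 1128 and 983 CPM labelled HrasG12V shScram (log2 change 0.45, SE 0.16, adjusted p 0.0695). Itgb4 RNA, at 735, 689 and 566 CPM against 418, 529 and 549, also did not overlap (0.41, SE 0.16, adjusted p 0.0946). Col17a1 RNA, at 1278, 1377 and 1205 CPM against 814, 1187 and 1049.8, was the third without overlap (0.34, SE 0.16, adjusted p 0.163). With Plec these were 4 of 8 genes with non-overlapping higher groups, against 13.4% of all tested genes, and Cd151 was the only one of the 8 with a non-overlapping lower group (15.2% of all genes). Without HrasG12V shScram library 2, Dst (0.58, adjusted p 0.0104), Col17a1 (0.47, 0.0321) and Itgb4 (0.46, 0.0443) passed the test. With length and GC offsets, Itgb4 was at −0.00 and Col17a1 at −0.06, while Dst stood at 0.30 (adjusted p 0.339). DESeq2 called Dst (adjusted p 0.0300).

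The laminin chains and Itga6 overlapped between these conditions. Lama3 RNA was 466, 451 and 399 CPM in HrasG12V shEif2b5 (log2 change 0.32, SE 0.17, adjusted p 0.20). Lamb3 RNA was 305, 282 and 252 CPM (−0.01, SE 0.17, adjusted p 0.979) and Itga6 RNA 387, 393 and 277 CPM (−0.16, SE 0.18, adjusted p 0.578).

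The median levels of the longest and the shortest genes differed between libraries. Relative to the mean over libraries, the median log2 level of the longest 10% of tested genes was −0.09, −0.09 and −0.01 in HrasG12V shScram RNA libraries 1 to 3, and that of the shortest 10% 0.14, 0.11 and 0.06. In WT shScram the longest genes stood at 0.03, 0.06 and 0.08 and the shortest at −0.01, −0.06 and −0.13, and in HrasG12V shEif2b5 they stood at 0.02, 0.04 and −0.01 and at −0.05, 0.01 and 0.03. In footprints the longest genes stood at −0.18, −0.08 and 0.04 in HrasG12V shScram, at 0.07, 0.09 and 0.09 in HrasG12V shEif2b5 and at −0.06, 0.04 and −0.00 in WT shScram. The shortest genes there stood at 0.12, 0.07 and −0.03, at −0.05, 0.00 and 0.07 and at 0.03, −0.10 and −0.03 in the same order. By coding length the members other than Cd151 ran from percentile 87.6 (Itga6) to 100 (Dst), so that Itga6, Lamb3 (88.6) and Cd151 (17.7) lay in neither the longest nor the shortest 10%. The summed basal genes were also lower in HrasG12V shScram RNA (6083 to 8523 CPM) than in HrasG12V shEif2b5 (9584 to 11723 CPM). Krt5 and Krt14 made up most of this sum. Trp63, the remaining gene in it, went the other way, with a higher mean in HrasG12V shScram RNA and overlapping groups. Krt15, a basal keratin outside this sum, stood at 920.1, 1267 and 988 CPM in HrasG12V shScram RNA and at 1338, 1275 and 1383 CPM in HrasG12V shEif2b5. Beyond the offset fit above, the part of length and of basal cell content in these results was not tested.

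**Figure D2:**
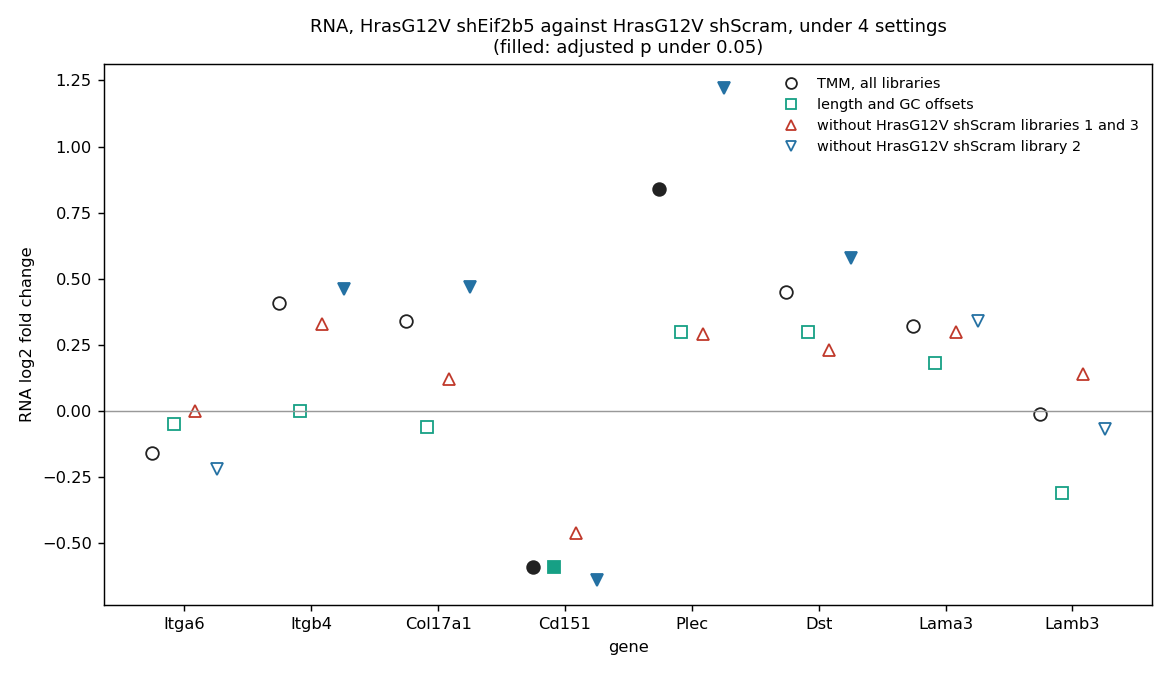
RNA log2 fold change of each gene (vertical axis) between HrasG12V shEif2b5 and HrasG12V shScram under 4 settings (symbols), filled where the adjusted p is under 0.05. Cd151 stays between −0.64 and −0.46 in the 4 settings, whereas Plec runs from 0.29 to 1.22.

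Against WT shScram, none of the 8 genes differed in the RNA of HrasG12V shEif2b5 by the test, where 0.324% of tested genes did, and 0 of 8 had an unadjusted p under 0.05 (7.32% of all genes). The log2 changes ran from −0.31 (Cd151, SE 0.17, adjusted p 0.746) to 0.22 (Itgb4, SE 0.16, adjusted p 0.843). Cd151 alone of the 8 had a non-overlapping lower group, as did 8.34% of all genes. For Plec the change was 0.15 with a 95% interval of −0.32 to 0.61, and for Dst −0.00 with an interval of −0.34 to 0.33. The 3 contrasts share libraries, so these values are not independent of the ones above.

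**Figure D3:**
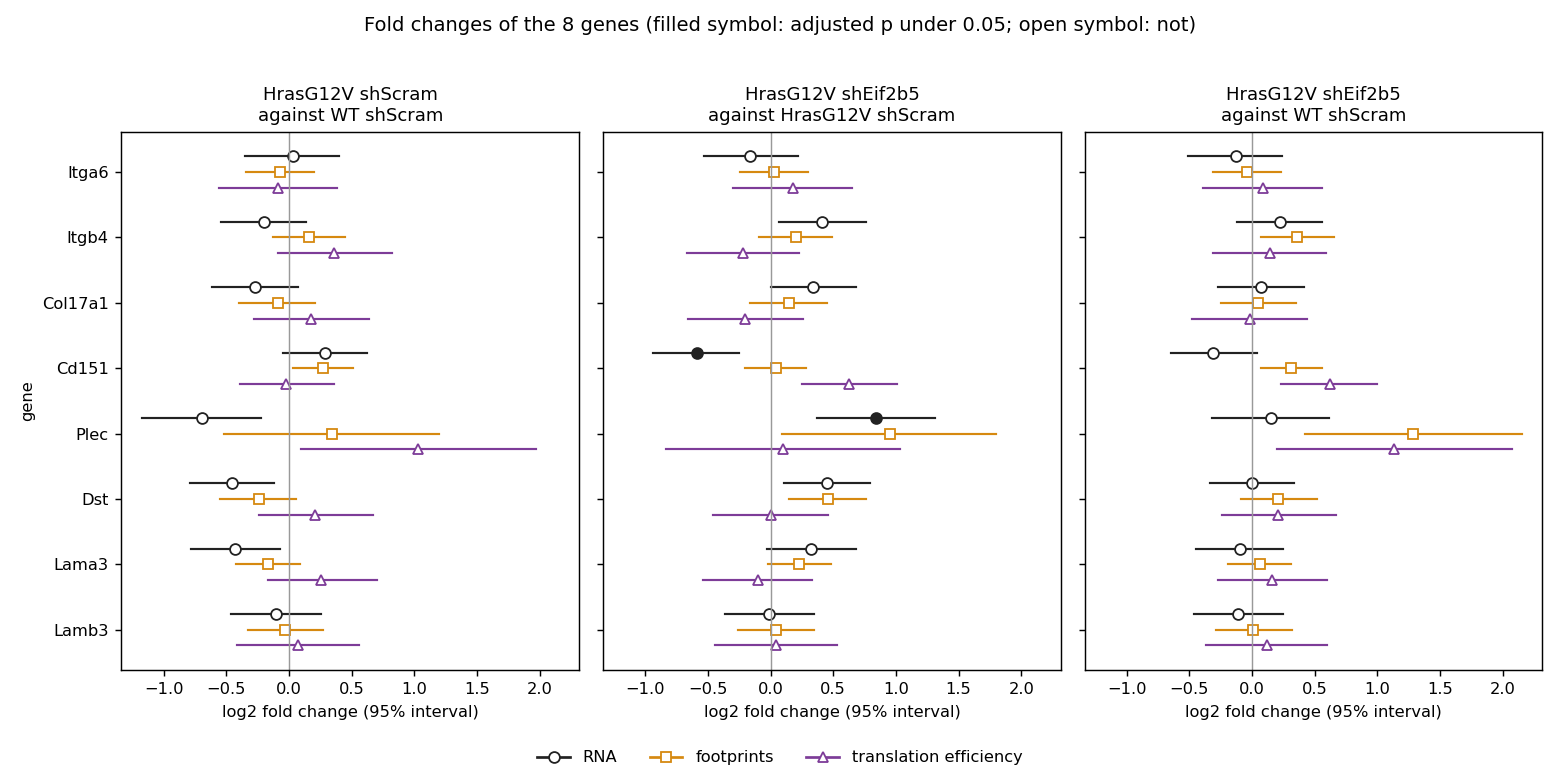
Log2 fold change (horizontal axis, bars are 95% intervals) of each gene in RNA, footprints and translation efficiency, with 1 panel per contrast and filled symbols for an adjusted p under 0.05. The 2 filled symbols are RNA of Cd151 (−0.59) and Plec (0.84) in the shRNA contrast, and the Plec footprint and efficiency intervals are the widest of the 8 genes.

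Footprint levels of the 8 genes changed little between WT shScram and HrasG12V shScram. None passed the test (1.70% of 11448 tested genes did), 1 of 8 had an unadjusted p under 0.05 (14.3% of all genes), and the median log2 change was −0.05, against −0.01 over all genes. The gene with the small p was Cd151, at 96.8, 110.0 and 118 CPM in WT shScram and 125, 128 and 138 CPM in HrasG12V shScram, higher in each library (log2 change 0.27, SE 0.12, adjusted p 0.291). It was the only one of the 8 with non-overlapping groups, and 10.4% of all genes had such higher groups. The Plec footprints were 175, 237 and 206 CPM in WT shScram and 206, 238 and 337 CPM in HrasG12V shScram, which overlapped (0.34, SE 0.36, adjusted p 0.753). Itga6 footprints were 552, 589 and 670.1 against 523, 569 and 635 CPM (−0.07, SE 0.13, 95% interval −0.34 to 0.20), and Lamb3 footprints 446, 544 and 649 against 482, 511 and 613 CPM (−0.03, SE 0.14, 95% interval −0.33 to 0.27).

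With the Eif2b5 shRNA, the footprint changes of the 8 genes were all positive (0.03 to 0.95, median 0.17, against 0.00 over all genes, of which 50.1% were positive). None passed the edgeR test, and no gene of the 11448 did (0%). At an unadjusted p under 0.05 there were 2 of the 8 and 519 of all genes (4.53%), and the DESeq2 Wald test called 1 gene of all tested and 0 of the 8. Dst was the only one of the 8 whose footprint groups did not overlap (5.50% of all genes had non-overlapping higher groups). Its footprints were 569.8, 646 and 657 CPM in HrasG12V shEif2b5 and 358, 463 and 544 CPM in HrasG12V shScram (log2 change 0.46, SE 0.15, unadjusted p 0.00557, adjusted p 0.994). With length and GC offsets the Dst change was 0.01 and those of Lama3, Itga6, Lamb3 and Col17a1 were −0.02, −0.03, −0.07 and −0.00, so the shared direction did not hold there.

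Plec footprints differed among the HrasG12V shEif2b5 libraries themselves. They stood at 263 CPM in library 1 and at 572 and 673 CPM in libraries 2 and 3, against at most 337 CPM in the 6 other footprint libraries. The log2 change against HrasG12V shScram was 0.95 (SE 0.36, adjusted p 0.994) and that against WT shScram 1.28 (SE 0.37, adjusted p 0.185), so neither passed the test. Without HrasG12V shEif2b5 library 1 both were called, at 1.26 (adjusted p 0.00354) and 1.59 (adjusted p 0.000109). Without libraries 2 and 3 they were 0.02 and 0.35 (adjusted p 0.999 and 0.749). With length and GC offsets the change against HrasG12V shScram was 0.52. The RNA of the libraries that carry the same numbers, 2442, 2099 and 2872 CPM, showed no such split, and the labels do not say that equal numbers share cells. Against WT shScram the Plec footprint change was called in 4 of 16 alternatives, among them DESeq2 (adjusted p 0.0387) and with length and GC offsets (1.01, adjusted p 0.00538). HrasG12V shEif2b5 footprint library 1 also differed from libraries 2 and 3 over the whole count table. The chi-square per degree of freedom was 20.3 and 21.1 for library 1 against 2 and 3, and 5.84 for 2 against 3. The 6 spinous genes summed to 22869.7 to 69566 CPM in these footprints, 30992 to 38122 CPM in HrasG12V shScram and 21863 to 43422 CPM in WT shScram. The part of this wider difference in the Plec split was not tested.

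The other footprint changes between HrasG12V shEif2b5 and WT shScram ran from −0.04 (Itga6) to 0.36 (Itgb4), and 0 of 8 passed the test, where 0.970% of tested genes did. At an unadjusted p under 0.05 there were 3 of the 8, against 14.4% of all genes. Itgb4, Plec and Cd151 had non-overlapping higher groups, as had 8.32% of all genes. Itgb4 footprints were 515, 526 and 463 CPM, above the 333, 389 and 448 CPM of WT shScram (log2 change 0.36, SE 0.14, adjusted p 0.234). Cd151 footprints were 136, 133 and 135 CPM, above every WT library (0.31, SE 0.12, adjusted p 0.216). Col17a1 (792, 814 and 681 CPM) and Lama3 (511, 486 and 449 CPM) overlapped WT shScram, at 601, 790.3 and 815 CPM and at 439, 489 and 457 CPM. Lamb3 (598, 588 and 470.1 CPM) overlapped its WT shScram values as well.

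Footprints set against RNA describe how densely an mRNA is translated. A model over all 18 libraries tested whether footprints changed by another factor than RNA, as an interaction between condition and kind, called translation efficiency below. None of the 8 genes passed that test in any of the 3 contrasts. The share of all 10793 tested genes that passed was 1.17% between HrasG12V shScram and WT shScram, 2.11% for the shRNA contrast and 0% between HrasG12V shEif2b5 and WT shScram, where 634 genes (5.87%) had an unadjusted p under 0.05. By that measure 1, 1 and 2 of the 8 had a small p in the same order of contrasts, against 15.8% and 19.1% of all genes in the first 2.

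Cd151 came nearest. Its RNA fell with the Eif2b5 shRNA while its footprints, at 136, 133 and 135 CPM against 125, 128 and 138, changed by 0.04 (SE 0.11, 95% interval −0.20 to 0.28). The efficiency change was 0.63 (SE 0.19, 95% interval 0.25 to 1.01, unadjusted p 0.00216, adjusted p 0.0671). It ran from 0.50 to 0.70 over 24 alternatives and was called in 2 of them, by DESeq2 (adjusted p 0.0341) and without HrasG12V shScram RNA library 2 (adjusted p 0.0203). Against WT shScram it was 0.62 (SE 0.19, adjusted p 0.709). The ratio of footprint CPM to RNA CPM was 2.47 in WT shScram, 2.45 in HrasG12V shScram and 3.79 in HrasG12V shEif2b5, percentiles 87.1, 91.5 and 94.8 of the tested genes.

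Plec lay at the other end. Its ratio of footprint to RNA CPM was 0.0924 in WT shScram, percentile 0.50, and 0.188 and 0.203 in HrasG12V shScram and HrasG12V shEif2b5, percentiles 2.40 and 4.86. The efficiency change was 1.03 (SE 0.44, adjusted p 0.263) between HrasG12V shScram and WT shScram and 1.13 (SE 0.44, adjusted p 0.814) between HrasG12V shEif2b5 and WT shScram. Both were positive in all 23 alternatives and called in none. In the shRNA contrast it was 0.10 (SE 0.44), and −0.83 without HrasG12V shEif2b5 footprint libraries 2 and 3.

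The remaining genes kept their order in all 3 conditions. In the order of the conditions just used, Lamb3 had ratios of 1.81, 1.90 and 1.97 and Itga6 of 1.57, 1.47 and 1.67. Lama3 stood near 1, at 0.980, 1.17 and 1.10. Itgb4 had 0.683, 0.875 and 0.755, Col17a1 0.60, 0.678 and 0.593, and Dst 0.406, 0.470 and 0.472. Thus the integrin alpha chain had more footprints per RNA count than its beta partner, and the laminin beta chain more than its alpha partner, in every condition. These ratios compare 2 kinds of library that were prepared differently, and the relation of such a ratio to protein output was not measured.

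**Figure D4:**
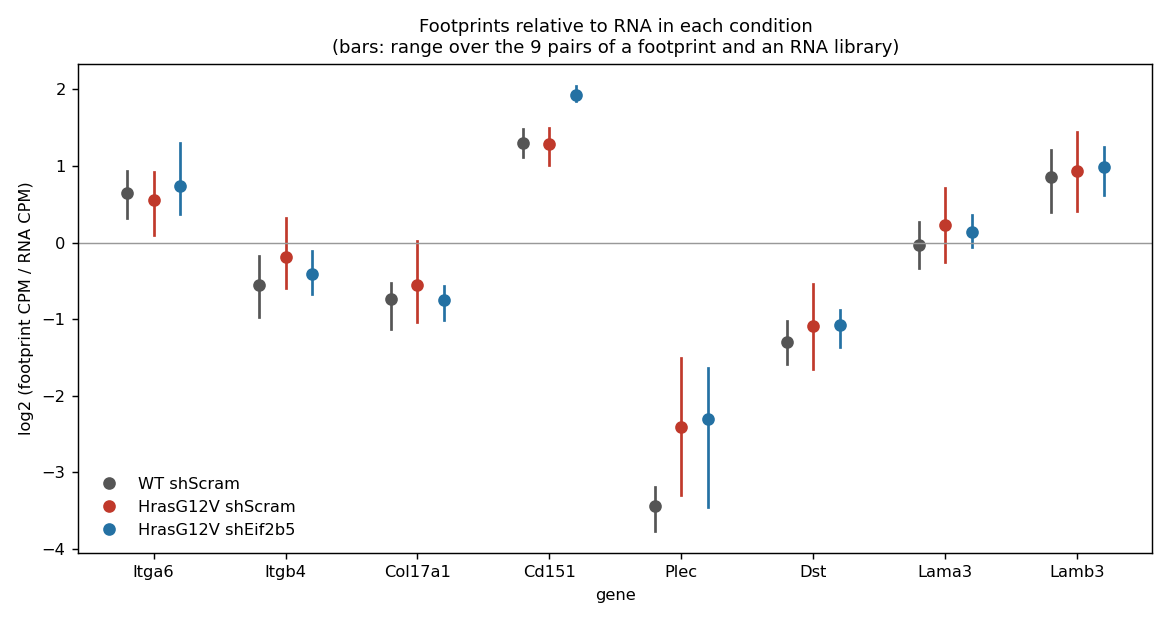
Log2 ratio of footprint CPM to RNA CPM (vertical axis) for each gene in the 3 conditions; points are ratios of group levels and bars give the range over the 9 pairs of a footprint and an RNA library of the condition. Plec lies lowest (0.0924 to 0.203 as a ratio) and Cd151 highest (2.45 to 3.79).

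Subunits that pair in 1 protein were compared per coding kilobase within each library. In footprints, the ratio of Itga6 to Itgb4 was 2.59 ± 0.147 in WT shScram, 2.22 ± 0.180 in HrasG12V shScram and 1.94 ± 0.218 in HrasG12V shEif2b5 (SD, n = 3). All HrasG12V libraries (1.81 to 2.38) lay below the WT range of 2.49 to 2.76. In RNA the ratio was 1.12 ± 0.0699, 1.31 ± 0.186 and 0.877 ± 0.0677 in the same order, and HrasG12V shEif2b5 lay below the 6 other libraries. Each of these separations has an exact two-sided permutation p of 0.10, the smallest that 3 against 3 libraries allow, and an adjusted p of 0.20 over 12 such comparisons.

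The laminin chains were unequal per coding kilobase. The ratio of Lama3 to Lamb3 in RNA was 0.537 ± 0.0378 in WT shScram, 0.435 ± 0.0450 in HrasG12V shScram and 0.541 ± 0.0137 in HrasG12V shEif2b5, and in footprints 0.297 ± 0.0496, 0.265 ± 0.0215 and 0.303 ± 0.0232. The HrasG12V shScram RNA libraries lay below both other groups (exact permutation p 0.10 each, adjusted p 0.20). If all counts came from the short Lama3 transcript, the RNA ratios would be 1.06, 0.854 and 1.06 and the footprint ratios 0.584, 0.521 and 0.595. The level of this ratio thus depends on the transcript. A length that is the same in every condition scales all conditions alike. A mix of Lama3 transcripts that differs between conditions would also change the ratio, and counts per gene symbol cannot show that mix.

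**Figure D5:**
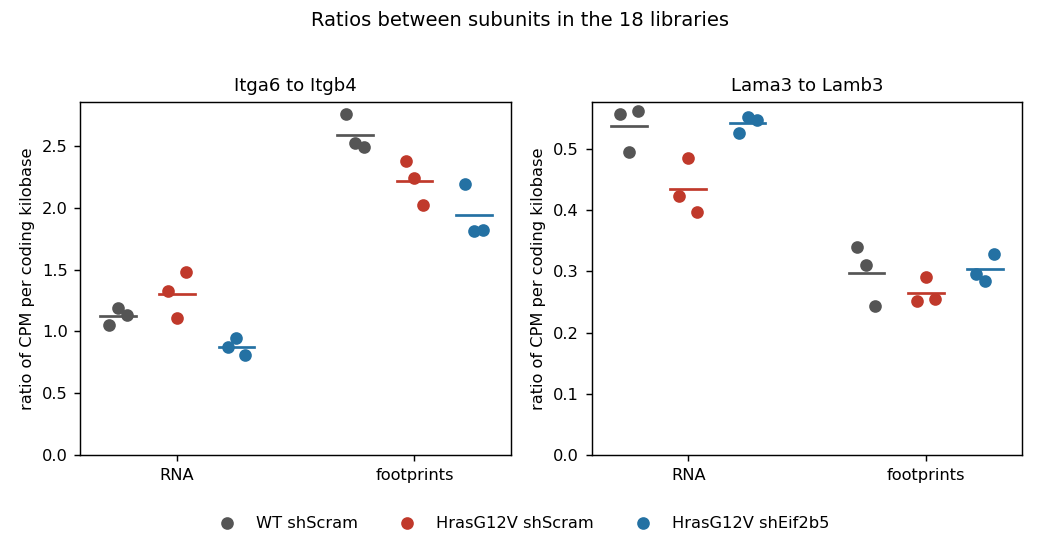
Ratio of CPM per coding kilobase (vertical axis, from 0) between partner subunits in each library, with group means as lines. The ratio of Itga6 to Itgb4 in footprints falls in the order WT shScram (2.59), HrasG12V shScram (2.22) and HrasG12V shEif2b5 (1.94), and the last 2 groups overlap.

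The 8 genes did not all follow each other across libraries. Pearson's r of each gene's log2 level with the mean of the 7 others over 9 RNA libraries was 0.95 for Lama3, 0.80 for Col17a1, 0.77 for Itgb4, 0.73 for Lamb3, 0.67 for Dst, 0.41 for Itga6, 0.40 for Plec and −0.39 for Cd151. Over 9 footprint libraries it was highest for Itgb4 (0.92) and Col17a1 (0.90) and lowest for Plec (0.42). Libraries of 1 condition share their treatment, so these values describe the 9 libraries only. The 10793 genes tested in both kinds were compared with the members' mean profile, by the smaller of the RNA and footprint r. The members, the other gene lists below and the cell type markers were left out of this ranking. Most alike among the rest were Mcm3ap (0.93 and 0.92), Megf6 (0.91 and 0.89), Mpdz (0.97 and 0.88), Kmt2a (0.86 and 0.89) and Usp5 (0.87 and 0.85).

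Around the hemidesmosome, 22 other genes of the dermal-epidermal junction were followed (among them Col7a1, the laminin-511 chains, type IV collagens, nidogens and the Fraser complex). In the RNA of the shRNA contrast 5 of 22 rose and none fell, where 5.23% of all tested genes were called higher and 7.79% lower. Their median log2 change was 0.32, close to the 0.33 of the 8 genes and against −0.01 over all genes. The 5 were Col18a1 (0.57), Col4a2 (0.66), Agrn (0.49), Col4a1 (0.61) and Col7a1 (0.84), with adjusted p-values of 0.0299, 0.0309, 0.0422, 0.0459 and 0.0499. Col7a1, the anchoring fibril collagen that receives laminin-332, stood at 932, 900.1 and 947 CPM in HrasG12V shEif2b5 and at 286, 807 and 463 CPM in the libraries labelled HrasG12V shScram. Col18a1, the collagen that carries endostatin, stood at 499, 431 and 482 CPM against 259.7, 394 and 303. Once length and GC offsets were added, the 5 changes were 0.10, 0.19, 0.06, 0.19 and 0.35 in the order above, and none passed the test. None passed without HrasG12V shScram libraries 1 and 3 together (0.26, 0.19, 0.53, 0.21 and 0.20). Each of the 5 also missed the threshold when HrasG12V shScram library 1 or 3, or HrasG12V shEif2b5 library 1 or 3, was left out.

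In the RNA of HrasG12V shScram against WT shScram 0 of the 22 passed, with a median of −0.18, and the smallest p belonged to Hspg2 (−0.52, adjusted p 0.0683). Against WT shScram, Lamb1 of the laminin-511 and related trimers rose in HrasG12V shEif2b5 footprints (367, 355 and 376 CPM against 248, 272 and 265, log2 change 0.48, adjusted p 0.0421) and was the only one of the 22 to pass there. That call was lost with length and GC offsets (0.36, adjusted p 0.0605) and without HrasG12V shEif2b5 library 2 (adjusted p 0.101) or 3 (0.163) or WT shScram library 1 (0.146) or 2 (0.0766). In the other contrasts none of the 22 passed, and the gene with the smallest p differed. Between HrasG12V shEif2b5 and WT shScram it was Grip1 in RNA (0.49, adjusted p 0.466) and Fras1 in efficiency (0.59, adjusted p 0.814). Between HrasG12V shScram and WT shScram it was Col4a2 in footprints (−0.57, adjusted p 0.102) and Agrn in efficiency (0.39, adjusted p 0.383). In the shRNA contrast it was Lama5 in footprints (0.49, adjusted p 0.994) and Grip1 in efficiency (−0.55, adjusted p 0.22).

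A further list of 14 genes held the basal keratins bound by the plakins, other tetraspanins and the enzymes that process collagen XVII and laminin-332, and 13 of them were tested. With the Eif2b5 shRNA, RNA of Krt14 (0.66, adjusted p 0.0290) and Krt5 (0.61, adjusted p 0.0420) rose, while Cd9 (−1.03, adjusted p 0.00179) and Erbb2ip, which encodes the integrin beta4 binding protein erbin (−0.71, adjusted p 0.0274), fell. These 4 of 13 compare with 13.0% of all tested genes. Krt5 stood at 8307, 6948 and 7908 CPM in HrasG12V shEif2b5 and at 4153, 6199 and 4780.0 CPM in the libraries labelled HrasG12V shScram. Under the length and GC offsets the changes of Krt14, Krt5 and Erbb2ip were 0.42, 0.40 and −0.27, none past the test. These 3 calls were also lost without HrasG12V shScram library 1 or 3 and without HrasG12V shEif2b5 library 1 or 3.

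Cd9, like Cd151 a tetraspanin gene, was another whose RNA fell with the Eif2b5 shRNA, and the 2 genes were not tested against each other. Its RNA stood at 223, 203 and 247 CPM in WT shScram and at 356, 349 and 395 CPM where HrasG12V came with the scrambled shRNA. With the Eif2b5 shRNA it stood at 211, 173 and 153 CPM, so that it rose (log2 change 0.71, SE 0.15, adjusted p 0.0100) and fell (−1.03, SE 0.15). The rise was lost without WT shScram library 1 (adjusted p 0.0559) or 2 (0.0608), and the fall held in all 16 alternatives run, those with offsets included (−0.88, adjusted p 0.00261). Cd9 footprints stood at 1600.5, 1460.0 and 1126 CPM in WT shScram, at 1166, 1186 and 1127 CPM in HrasG12V shScram and at 1108, 1008 and 1154 CPM in HrasG12V shEif2b5. The footprint change was −0.27 (SE 0.13, adjusted p 0.351) between HrasG12V shScram and WT shScram and −0.09 (SE 0.13, adjusted p 0.994) in the shRNA contrast. The efficiency of Cd9 differed by −0.97 (adjusted p 0.0213) and 0.94 (adjusted p 0.0228) in these contrasts, in that order, and leaving out single libraries raised the adjusted p to as much as 0.10 (without WT shScram footprint library 1) and 0.0876 (without HrasG12V shEif2b5 RNA library 3). Krt15 RNA, a basal keratin, was lower in HrasG12V shScram (920.1, 1267 and 988 CPM) than in WT shScram (1898, 1832 and 2527 CPM, log2 change −0.98, adjusted p 0.00400). It missed the threshold only without HrasG12V shScram libraries 1 and 3 together (−0.72, adjusted p 0.17), of the 16 alternatives run. In the remaining contrasts 0 of the 13 passed. Krt15 had the smallest p between HrasG12V shEif2b5 and WT shScram in RNA (−0.65, adjusted p 0.162) and efficiency (0.76, adjusted p 0.794) and in the footprints of the shRNA contrast (0.42, adjusted p 0.994). Krt5 had it in footprints of HrasG12V shEif2b5 against WT shScram (0.45, adjusted p 0.185), and Mmp14 in those of HrasG12V shScram against WT shScram (−0.33, adjusted p 0.201).

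Among 16 genes of actin-linked adhesions, which also hold integrins but anchor actin and not keratin, 2 passed in each of 2 RNA contrasts, where 7.70% and 13.0% of all tested genes did. Itgb5, the partner of integrin alpha v, was lower in HrasG12V shScram than in WT shScram (−0.61, adjusted p 0.0185) and higher with the Eif2b5 shRNA (0.54, adjusted p 0.0231). Itga2, a collagen-binding integrin chain, did the reverse (0.75 and −0.71, adjusted p 0.0456 in both). The Itgb5 RNA values were 653, 591 and 620.1 CPM in WT shScram, 376, 462 and 382 where HrasG12V came with the scrambled shRNA, and 629, 536 and 606 with the Eif2b5 shRNA. The medians of this list were 0.06 and −0.01, near those of all genes. With length and GC offsets all 4 changes kept their sign and missed the threshold (adjusted p 0.0558 to 0.116), and each was lost without HrasG12V shScram library 1 or 3. None of the 16 passed in the other contrasts. Between HrasG12V shEif2b5 and WT shScram the smallest p belonged to Zyx in RNA (0.37, adjusted p 0.704), Vcl in footprints (0.33, adjusted p 0.202) and Pxn in efficiency (−0.41, adjusted p 0.840). Between HrasG12V shScram and WT shScram it belonged to Itgb8 in footprints (−0.65, adjusted p 0.118) and Itgb5 in efficiency (0.55, adjusted p 0.125). In the shRNA contrast it belonged to Tln1 in footprints (0.42, adjusted p 0.994) and Itgb5 in efficiency (−0.52, adjusted p 0.108).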

How the data were processed

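Raw read counts per gene symbol over coding sequence were deposited by the authors, who used Bowtie, TopHat2 and HTSeq on mm10, per the submitters' processing notes. Versions, strand setting and the handling of shared bases are not given in the sources used here. All 18 columns were used (0 left out), and no pair of libraries of the same kind and condition was a copy. Pairs from different conditions were not compared in this way. Genes passed filterByExpr (minimum count 10, minimum total 15), libraries were scaled by TMM within a kind, and edgeR 4.0.16 (R 4.3.3, quasi-likelihood, robust) took in the 9 libraries of each kind, or to all 18 for translation efficiency. P-values were adjusted by Benjamini-Hochberg over all tested genes of a contrast, and a gene was called under 0.05. Scripts were tested on simulated data. Coding lengths are unions of GENCODE M21 coding exons, and 19889 names matched by symbol and 613 by synonym. Subunit ratios were compared by exact permutation, two-sided. Alternatives were DESeq2 1.42.0, other scalings, filters, offsets on length and GC content, a replicate block, the 2 conditions alone, and libraries left out.

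The members and gene lists were chosen with earlier results of these data known. The 8 members are named in every contrast. 1 gene that the rule also names is not reported here. From each of the 3 other lists the rule names up to 4 called genes with the smallest p, or 1 where none was called, and Col7a1, the fifth called junction gene, was added after its values were seen. Likeness used log2(CPM + 0.5).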

Additional observations from a re-analysis of the deposited data

How the results depend on the processing

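Of 1312 alternative values for the 8 genes, 14 lost a call, 16 gained one and 12 changed sign with a value over 1 SE from 0. The other 1270 kept their side of the threshold, and 94 of these changed sign within 1 SE of 0. Most of the 1270 belong to results that were not called with the main settings. Only the Plec and Cd151 RNA calls of the shRNA contrast could be lost, and each held in 9 of 16 alternatives. With length and GC offsets, RNA changes between HrasG12V shScram and WT shScram became 0.19 for Itgb4, 0.09 for Col17a1 and 0.19 for Lamb3, and those of the shRNA contrast −0.00 for Itgb4 and −0.06 for Col17a1. Footprint changes of the shRNA contrast became −0.00 for Col17a1 and −0.02 for Lama3, and against WT shScram those of HrasG12V shEif2b5 became −0.17 for Dst and −0.14 for Lama3. The Dst efficiency change there became −0.30. Lamb3 RNA in the shRNA contrast was 0.22 without HrasG12V shScram library 3, and Plec efficiency −0.83 without HrasG12V shEif2b5 footprint libraries 2 and 3, a setting chosen after seeing the data. The cause of these shifts was not tested.

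Counts of called genes, in the order HrasG12V shScram against WT shScram, shRNA contrast, HrasG12V shEif2b5 against WT shScram, were 854, 1444 and 36 in RNA, 195, 0 and 111 in footprints and 126, 228 and 0 in efficiency. Without a filter they became 72 in the last RNA contrast and 1 and 216 in the second and the last footprint contrast, with 1 of the 8 called in the first RNA contrast. DESeq2 gave 64 in the last RNA contrast, 1 and 229 in the second and the last footprint contrast, and 267 and 445 for efficiency. It called 2 of the 8 in the first RNA contrast, 1 in the last footprint contrast and 1 in the second efficiency contrast. Offsets gave 415 and 625 in RNA (284 higher and 341 lower, against 580 and 864), 172 in the last footprint contrast and 117 in the second efficiency contrast, with 1 of the 8 called in the second RNA and 1 in the last footprint contrast. In the first RNA contrast the split was 287 higher and 128 lower with offsets, against 516 and 338. With only the 2 conditions compared, RNA gave 389, 876 and 123 (0 of the 8 in the second), the last footprint contrast 44 and the first efficiency contrast 43. Without HrasG12V shScram RNA libraries 1 and 3, RNA gave 47 and 17 (0 of the 8 in the second) and efficiency 8 and 2. Without HrasG12V shEif2b5 footprint libraries 2 and 3, footprints gave 3 and 23 and efficiency 16 and 2. In both settings the lone library is assumed to vary like the other groups.

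Leaving out 1 library at a time gave 189 to 2431, 197 to 3150 and 12 to 20 genes in RNA, 73 to 559, 0 to 31 and 37 to 407 in footprints and 11 to 693, 7 to 1350 and 0 to 18 in efficiency. Of the 8 genes, it called 0 to 2 in the first RNA contrast, 0 to 5 in the second, and 0 to 1 in the second and the last footprint contrast and in the second efficiency contrast.

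Deviations from the group mean were correlated between libraries of different conditions with the same number (r from −0.30 to 0.29 in RNA and −0.13 to 0.24 in footprints). Libraries with different numbers were not compared, so these values cannot decide whether the numbers pair conditions. Footprint and RNA libraries of 1 condition and number had r of 0.15, 0.28 and 0.26 in WT shScram, 0.18, 0.05 and 0.17 in HrasG12V shScram and 0.12, 0.02 and 0.07 in HrasG12V shEif2b5, not all over 0.1. A replicate block over these 9 pairs, chosen after seeing the data, gave 164, 330 and 0 efficiency calls and 0 of the 8 in each contrast. With a replicate block by number within a kind, footprints gave 1 gene in the second contrast and 184 in the last, where 1 of the 8 was called (Plec, adjusted p 0.0132), and efficiency gave 101 in the second. With that block no other call among the 8 changed.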
